A study of Mus musculus with 2 samples.

Results

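Let-7 is a microRNA (miRNA) family whose members repress growth and stem cell genes, and in mouse 3 of its mature sequences are each made by 2 separate genes. Those genes are Mirlet7a-1 and Mirlet7a-2, Mirlet7c-1 and Mirlet7c-2, and Mirlet7f-1 and Mirlet7f-2. They were matched by GENCODE M21 gene name, and all 6 were found among the 2202 miRNA genes counted. The counts came from RNA under 30 nt in hippocampal tissue. The mice were female, 5xFAD/CAST by strain label, and between 8 and 10 months old. Both libraries, biological replicates 1 and 2, form 1 group, so no other genotype, age or tissue can be compared. They cite 1 donor entry and no label says that they came from separate animals, so their spread may be technical. The name 5xFAD stands for a transgenic mouse model of amyloid deposition, whose transgenes are driven by the neuronal Thy1 promoter, and CAST is an inbred strain derived from Mus musculus castaneus. Levels are sense-strand read counts scaled to a common total of counts assigned to miRNA genes, in counts per 1000000 (CPM), as mean ± SD over the libraries where a mean is given.

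A let-7 gene is transcribed as part of a longer RNA, from which the enzymes Drosha and Dicer cut a hairpin and then a short duplex. One strand of the duplex, for let-7 mostly the 5p arm, guides Argonaute proteins to messenger RNAs that pair with its seed, bases 2 to 8. Let-7 is scarce in stem cells, where the protein LIN28 blocks its processing, and abundant in differentiated tissue such as brain. Genes of 1 pair can be transcribed from different chromosomes and still yield the same guide.

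The 5p arms of the 3 pairs show why copies of a pair are hard to tell apart, with the seed in capitals. Sequences here are from RefSeq (GRCm38.p6, the build that mm10 names), whose hairpins were identical to the M21 sequence for 6 of 6 genes.
let-7a-5p: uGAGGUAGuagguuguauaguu
let-7c-5p: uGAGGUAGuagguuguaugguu
let-7f-5p: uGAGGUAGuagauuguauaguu

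All 3 arms are 22 bases long and share 1 seed. The arms of let-7a and let-7c differ at 1 position, those of let-7a and let-7f at 1, and those of let-7c and let-7f at 2. Each arm had an exact match in 2 of the 2202 annotated hairpins, the copies of its own pair. Table entries list the let-7a arm under Mirlet7a-1 alone, and its sequence was found in the hairpin of Mirlet7a-2 as well. Among M21 transcripts other than miRNAs, the let-7a and let-7f arms occurred in 1 gene, 6720427I07Rik, and the let-7c arm in 1 gene, Lncppara, which are host genes of these hairpins. The 6 single-copy relatives, Mirlet7b, Mirlet7d, Mirlet7e, Mirlet7g, Mirlet7i and Mir98, carry the same seed, and each of their 5p arms matched 1 hairpin. They are shown with capitals at the bases that differ from let-7a-5p.
let-7b-5p: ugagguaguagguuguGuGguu
let-7d-5p: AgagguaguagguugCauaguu
let-7e-5p: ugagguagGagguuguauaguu
let-7g-5p: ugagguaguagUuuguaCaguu
let-7i-5p: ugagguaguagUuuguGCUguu
miR-98-5p: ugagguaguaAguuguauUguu

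Read on from the 5p arm into the loop, the copies part within 2 bases of the arm's end. The first 26 bases from the start of the arm are shown for the 6 genes, with capitals from the first base at which the copies of a pair differ.
Mirlet7a-1: ugagguaguagguuguauaguuuUAG
Mirlet7a-2: ugagguaguagguuguauaguuuAGA
Mirlet7c-1: ugagguaguagguuguaugguuuAGA
Mirlet7c-2: ugagguaguagguuguaugguuuUGG
Mirlet7f-1: ugagguaguagauuguauaguuGUGG
Mirlet7f-2: ugagguaguagauuguauaguuUUAG

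A run from the arm's first base was found in a single annotated hairpin from 24 bases on for the let-7a and let-7c copies, and from 23 bases on for the let-7f copies. Before the arm, the copies share 0 adjoining bases in all 3 pairs. Whole hairpins aligned at 68.9% identity for the let-7a copies, 67.3% for the let-7c copies and 72.2% for the let-7f copies.

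**Figure D1:**
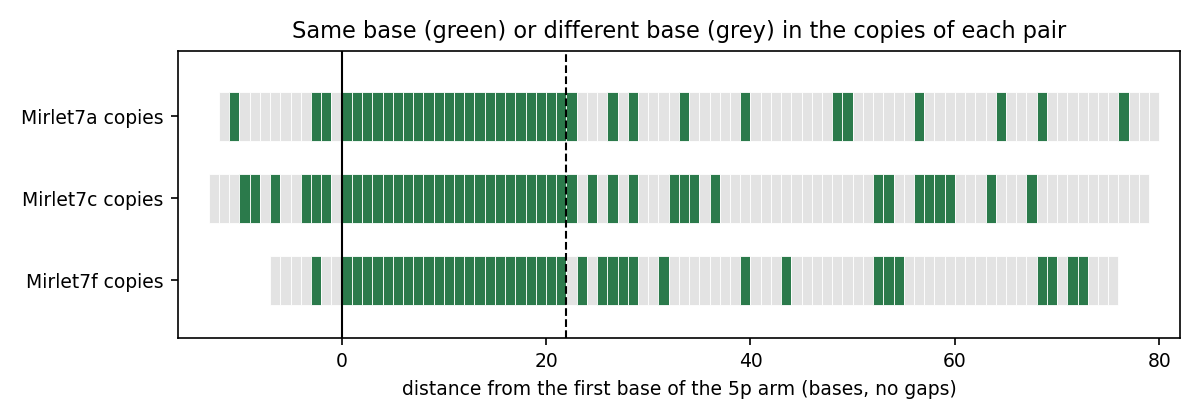
Agreement of the copies of each pair, laid without gaps from the first base of the 5p arm (x axis, in bases). Green marks the same base and grey a different one, the solid line is the start and the dashed line the end of the 22-base arm. The green run ends after 23 bases for Mirlet7a and Mirlet7c and after 22 for Mirlet7f.

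The 3p arms, which are usually degraded, separate the copies of each pair, but 1 of them is shared across pairs. They are shown with capitals at the bases that differ from the arm of Mirlet7a-1, counted from the 5′ end without gaps.
Mirlet7a-1 3p: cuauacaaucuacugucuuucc
Mirlet7a-2 3p: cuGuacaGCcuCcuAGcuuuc
Mirlet7c-1 3p: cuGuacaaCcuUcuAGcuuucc
Mirlet7c-2 3p: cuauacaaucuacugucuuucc
Mirlet7f-1 3p: cuauacaaucuaUugCcuuCcc
Mirlet7f-2 3p: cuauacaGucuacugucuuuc

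Mirlet7a-1 and Mirlet7c-2 have the same 3p arm, which matched 2 hairpins, and the other 4 arms matched 1 hairpin each. Both arms of Mirlet7a-1 and of Mirlet7c-2 therefore have an exact match in a second gene, while the other 4 genes each have 1 arm of their own. Of the 2202 annotated genes, 1250 have a hairpin that holds a RefSeq arm. Among these 1250, 282 had every such arm in a further hairpin. Of the 282, 7 had at least 10 counts in each library, Mirlet7a-1 and Mirlet7c-2 among them. The same level was reached by 43 of 66 genes with some arms shared, and by 298 of 902 genes with none shared.

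The libraries held 9962659 reads in replicate 1 and 12761689 in replicate 2, of which 3135960 and 4377622 were assigned to a miRNA gene on its own strand. Taken as 3 counts, the limit that a count of 0 allows was 0.957 CPM for replicate 1 and 0.685 CPM for replicate 2. Floors and intervals cover counting error within a library only, and no molecular identifiers were used in them. Neuronal markers ranged up to 17397 ± 6067 CPM for Mir132, but the 3 copies of the neuron-specific Mir124a had 0 to 8 counts. As these are copies by symbol, reads that map to several places may be missing from their counts. Their low counts therefore do not show a low level of the miRNA. The oligodendrocyte markers Mir219a-2 and Mir338 were at 3540 ± 343 and 3197 ± 423 CPM, the endothelial Mir126a at 17498 ± 7038, and the liver marker Mir122 at 33.4 ± 7.07 (SD, n = 2). Tissue RNA does not tell fewer cells of a type from less RNA per cell.

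All 6 let-7 genes were detected at 10 counts or more in each library, a level that 17.4% of all annotated genes reached. Their counts nevertheless lay well below those of their single-copy relatives. Together they held 20417 counts in replicate 1 and 23241 in replicate 2, which was 0.651% (exact Clopper-Pearson 95% interval 0.642% to 0.660%) and 0.531% (0.524% to 0.538%) of the assigned counts, or 0.591% ± 0.0850 (SD, n = 2). The 6 relatives held 37.9% and 34.9%. Of the counts of all 12 let-7 genes, the 6 multi-copy genes supplied 1.69% in replicate 1 and 1.50% in replicate 2.

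Mirlet7f-2 had the highest counts of the 6. It had 11736 counts in replicate 1 and 13242 in replicate 2, or 3742 and 3025 CPM (3384 ± 507, SD, n = 2), which placed it at rank 49 of 2202 genes by mean. Its hairpin is at chrX:151912346-151912428 on the plus strand (ENSMUSG00000065602.1), inside an intron of Huwe1, which encodes a ubiquitin ligase. Mirlet7f-1, which makes the same 5p arm, had 865 and 863 counts, or 276 and 197 CPM (236 ± 55.6, rank 157). Its hairpin (ENSMUSG00000105621.1) is at chr13:48537829-48537917 on the minus strand, within an exon of the long non-coding RNA 6720427I07Rik. Mirlet7f-1 was thus below Mirlet7f-2 in both libraries, with no overlap.

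Mirlet7c-2 ranked next. It had 4332 and 5375 counts in replicates 1 and 2, or 1381 and 1228 CPM (1305 ± 109, rank 83). Its hairpin (ENSMUSG00000065608.1) is at chr15:85706603-85706697 on the plus strand, in an exon of the non-coding RNA Lncppara that also holds Mirlet7b. Mirlet7c-1 had 1808 and 2215 counts, or 577 and 506 CPM (541 ± 49.9, rank 123). It is at chr16:77599657-77599750 on the plus strand (ENSMUSG00000065557.3), in an intron of Mir99ahg, and on the other strand the annotation has the protein-coding gene Gm11146. The CPM ranges of the let-7c copies did not overlap.

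The let-7a copies had some of the lowest counts of the 6 genes. Mirlet7a-1 had 1039 and 992 counts in replicates 1 and 2, or 331 and 227 CPM (279 ± 74.0, rank 145). Its hairpin (ENSMUSG00000065421.3) is at chr13:48538179-48538272 on the minus strand, 261 bp from Mirlet7f-1 and in the same exon of 6720427I07Rik. Mirlet7a-2 had 637 and 554 counts, or 203 and 127 CPM (165 ± 54.1, rank 172). It is at chr9:41536716-41536811 on the plus strand (ENSMUSG00000092770.1), in an intron of the non-coding genes 3110039I08Rik and Gm49317. In each library Mirlet7a-1 exceeded Mirlet7a-2, and replicate 1 was the higher library for both genes.

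The order of levels, Mirlet7f-2, Mirlet7c-2, Mirlet7c-1, Mirlet7a-1, Mirlet7f-1 and Mirlet7a-2, was the same in both libraries. Down to Mirlet7a-1, the CPM ranges of neighbours in this order did not overlap. Mirlet7a-1 and Mirlet7f-1 differed by 42.5 CPM, less than the SD of either gene (74.0 and 55.6). Mirlet7f-1 and Mirlet7a-2 differed by 71.6 CPM, more than the SD of either gene, but their ranges overlapped. The ranges of Mirlet7a-1 and Mirlet7a-2, which were 114 CPM apart, did not.

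**Figure D2:**
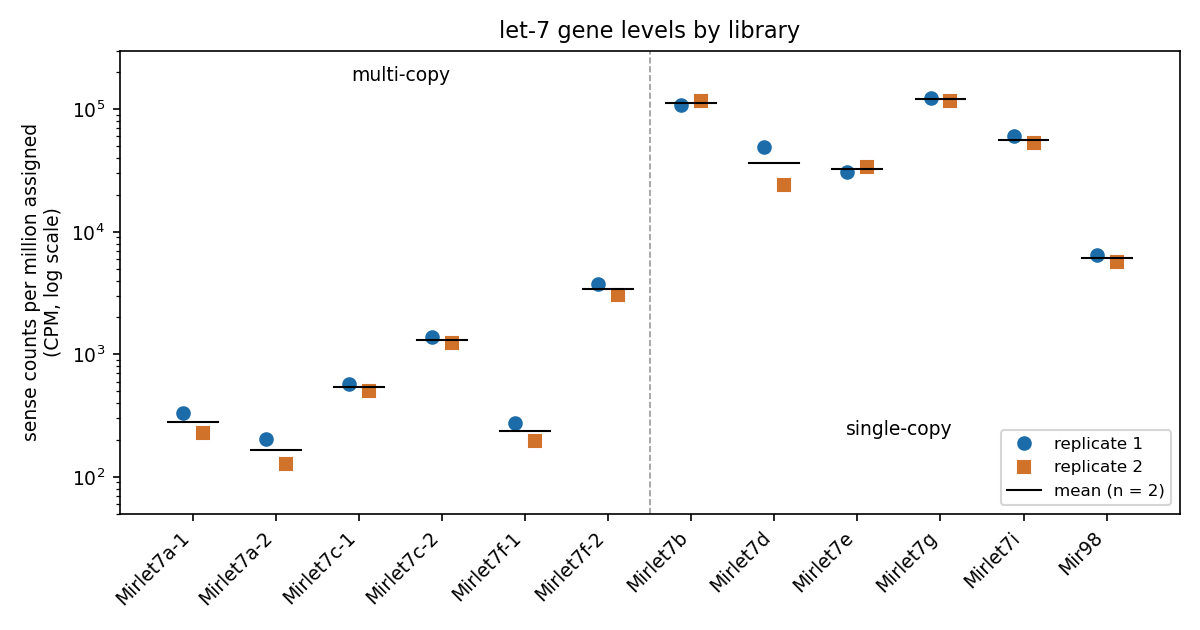
Level of each let-7 gene in CPM on a log axis, for the 6 multi-copy genes on the left and the 6 single-copy genes on the right. Circles are replicate 1, squares replicate 2 and lines the mean (n = 2). The multi-copy genes average between 165 and 3384 CPM and the single-copy genes between 6076 and 120353 CPM.

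No multi-copy gene reached the level of the lowest single-copy relative, Mir98 at 6076 ± 632 CPM. On the log2(CPM + 1) scale the median of the 6 genes was 8.78 in replicate 1 and 8.41 in replicate 2, against 15.73 and 15.37 for the relatives. The difference was -6.95 and -6.96 in the 2 libraries, multi-copy minus single-copy, which is given as a description because the genes were chosen with earlier results known. With the counts of each pair summed, the difference was -4.70. Reads of a 5p arm shared by both copies map to several places and may be missing from both counts. A pair sum would not bring such reads back. The difference is therefore between counted reads and does not show a low level of the multi-copy miRNAs. The largest sum, that of the let-7f copies, was 0.402% and 0.322% of the assigned counts (0.362% ± 0.0563, SD, n = 2). That of the let-7c copies was 0.185% ± 0.0158 and that of the let-7a copies 0.0444% ± 0.0128.

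Within each pair the copies differed by more than their spread between libraries. Mirlet7f-1 was below Mirlet7f-2 with a log2 ratio of -3.76 in replicate 1 and -3.94 in replicate 2 (-3.85 ± 0.12, SD, n = 2), so that Mirlet7f-2 was 13.6-fold and 15.3-fold the higher. Mirlet7c-1 was below Mirlet7c-2 with a log2 ratio of -1.26 and -1.28 (-1.27 ± 0.01). Mirlet7a-1 was above Mirlet7a-2 with a log2 ratio of 0.70 and 0.84 (0.77 ± 0.09). No ratio changed its direction between the libraries. In each pair the higher copy was the one with U at the first base where the copies differ (Mirlet7a-1, Mirlet7c-2 and Mirlet7f-2). The lower copies have A, A and G there. Whether that base bears on which copy a read was counted for was not tested. The ratios are of counted reads and do not give the output of each gene.

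As a share of its pair, Mirlet7f-1 held 6.86% (exact Clopper-Pearson 95% interval 6.43% to 7.32%) in replicate 1 and 6.12% (5.73% to 6.53%) in replicate 2. Mirlet7c-1 held 29.4% (28.3% to 30.6%) and 29.2% (28.2% to 30.2%) of its pair. Mirlet7a-1 held 62.0% (59.6% to 64.3%) and 64.2% (61.7% to 66.6%). In all 3 pairs the intervals of the 2 libraries overlapped, and none reached an equal split. These are shares of the reads counted for the genes, not of all reads that a gene gave rise to.

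Copies differed in other pairs as well. Of 43 pairs of genes with 2 copies by symbol, 17 pairs other than let-7 had at least 20 counts over both copies in each library and neither copy at 0. A further 2 pairs had a copy at 0 and were left out, as their ratio would be set by the added 0.5 CPM. The median log2 copy ratio of the 17, without its sign, was 2.20, with a range of 0.11 to 9.33. The let-7f pair, at 3.85, was exceeded by 4 of the 17, the let-7c pair, at 1.27, by 10, and the let-7a pair, at 0.77, by 15. The libraries were 0.18 apart in the log2 ratio of the let-7f copies, 0.02 in that of the let-7c copies and 0.13 in that of the let-7a copies, against a median of 0.42 over the 17. In 15 of the 17 pairs the same copy was the higher in both libraries.

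**Figure D3:**
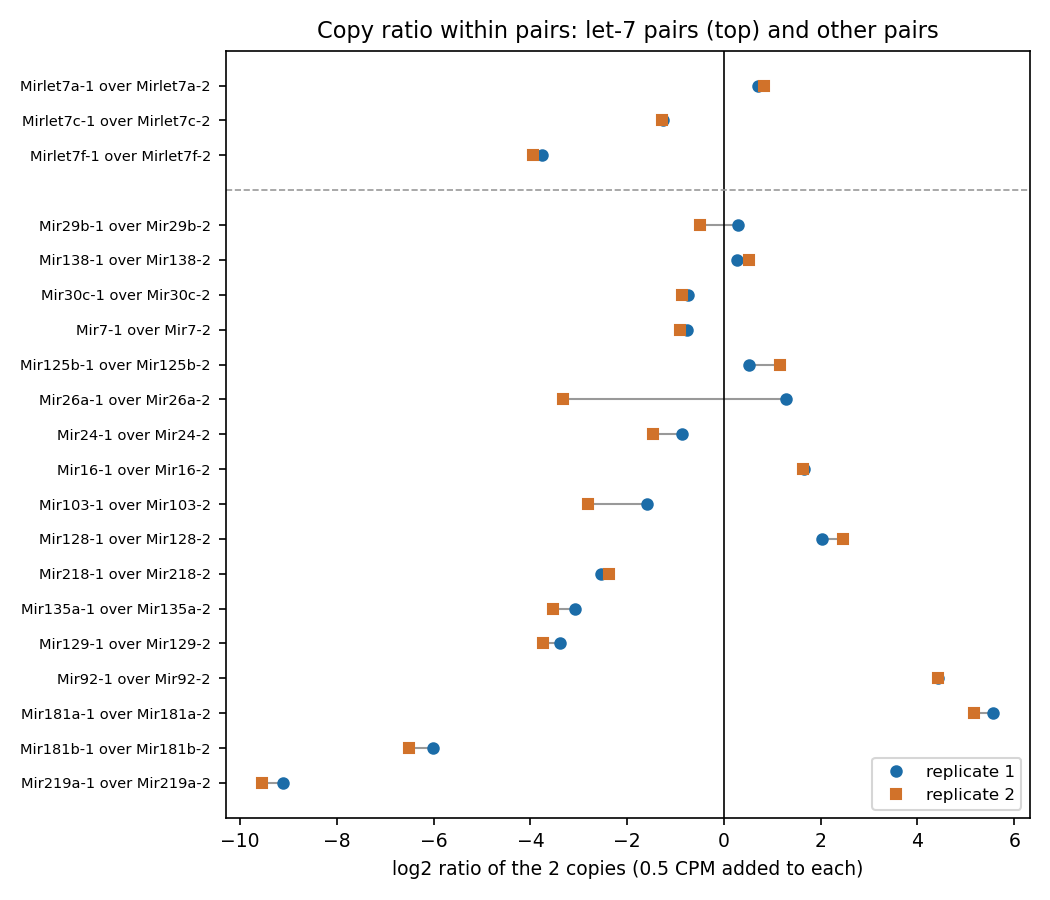
Log2 ratio of the first-numbered over the second-numbered copy, with 0.5 CPM added to each, for the 3 let-7 pairs above the dashed line and 17 other pairs below it. Circles are replicate 1 and squares replicate 2. The let-7 pairs lie at 0.77, -1.27 and -3.85 on average, with their libraries at most 0.18 apart.

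Reads that map to several places stand in a line of their own in the tables, as read from its name. How the counter treated such reads is not stated, so it is from the line and not from a stated method that the gene counts are taken as reads assigned to 1 gene. The line held 3615399 reads in replicate 1 and 5325889 in replicate 2, or 36.3% and 41.7% of all reads, more than all miRNA genes together (115% and 122% of the assigned counts). The 6 genes had 0.565% and 0.436% as many reads as the line (0.501% ± 0.0908, SD, n = 2), so that it held 177 and 229 reads for each of their counts. For the let-7f copies the figure was 0.307% ± 0.0592, for the let-7c copies 0.156% ± 0.0193 and for the let-7a copies 0.0377% ± 0.0123. By symbol, 138 miRNA genes have a further copy, and the 6 let-7 genes supplied 25.2% and 17.5% of the counts of these genes. How many of the multimapping reads came from let-7 arms was not tested, as the tables do not say where those reads map. The true level of each copy is therefore not known from these counts, and its share of the multimapping reads cannot be told apart from that of the other copy.

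**Figure D4:**
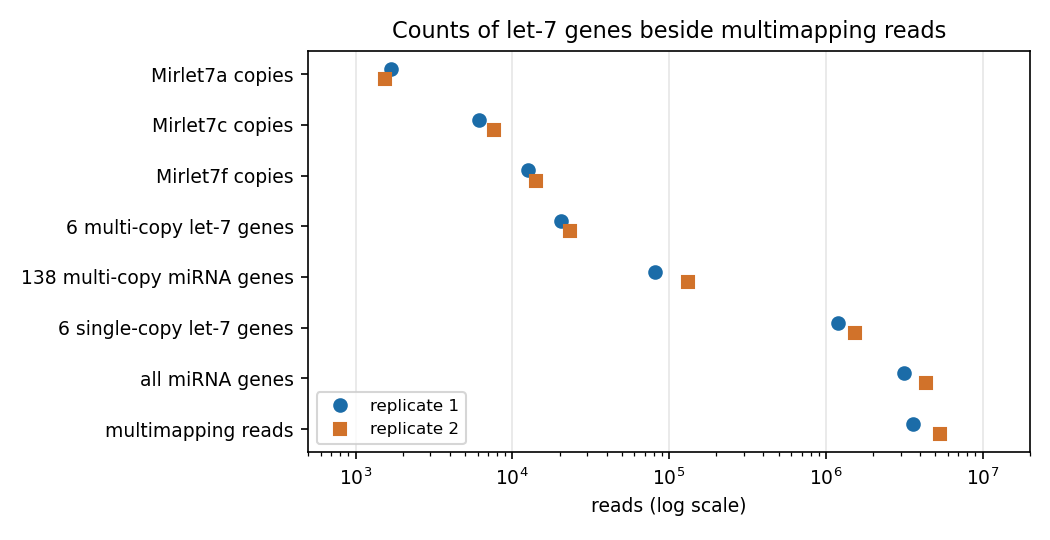
Reads in each class on a log axis, with circles for replicate 1 and squares for replicate 2. The 6 multi-copy let-7 genes hold 20417 and 23241 counts, the 6 single-copy genes 1187361 and 1529589, and the multimapping line 3615399 and 5325889 reads.

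Each of the 6 hairpins has a miRNA neighbour within 10000 bp on its strand, and all of these had more counts than the multi-copy gene, apart from the pair Mirlet7a-1 and Mirlet7f-1, which neighbour each other. Mirlet7a-1 had 0.676% of the counts of Mirlet7d in replicate 1 and 0.946% in replicate 2, and Mirlet7f-1 had 0.563% and 0.823%. These 3 hairpins lie in 1 annotated exon of 6720427I07Rik, chr13:48532905-48538351. Mirlet7c-2 had 1.27% and 1.06% of the counts of Mirlet7b, which starts 621 bp beyond its end. Mirlet7f-2 came closest to its neighbour, with 57.4% and 53.7% of the counts of Mir98, 785 bp away in Huwe1. The 5p arms of Mirlet7d, Mirlet7b and Mir98 each match 1 hairpin, and those of the multi-copy genes match 2. Multimapping reads may thus be missing from the counts of the multi-copy genes. The percentages compare counted reads and do not show how much each hairpin yields.

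Mirlet7a-2 and Mirlet7c-1 lie in clusters with miR-100 or miR-99 and miR-125 genes, an arrangement conserved across animals. Mirlet7a-2 had 3.52% and 3.35% of the counts of Mir100, 5211 bp away, and Mirlet7c-1 had 2.32% and 2.59% of those of Mir99a, 656 bp away. The miR-125 genes of these clusters lie farther off, 45114 bp from Mirlet7a-2 and 46522 bp from Mirlet7c-1, and themselves have 2 copies. Mir125b-1 was at 744 and 906 CPM and Mir125b-2 at 516 and 403 CPM. Mirlet7a-2 had 27.3% and 14.0% of the counts of Mir125b-1, while Mirlet7c-1 had 112% and 126% of those of Mir125b-2. Here too the counts of genes with copies may lack multimapping reads. In the third such cluster, which holds the single-copy Mirlet7e, Mir99b was at 2703 and 10743 CPM and Mir125a at 8971 and 15538 CPM.

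All 6 genes had a higher CPM in replicate 1 than in replicate 2, by log2 ratios of 0.17 for Mirlet7c-2, 0.19 for Mirlet7c-1, 0.31 for Mirlet7f-2, 0.48 for Mirlet7f-1, 0.55 for Mirlet7a-1 and 0.68 for Mirlet7a-2. None of the 6 was past 2-fold between the libraries, which 16.3% of the 424 genes with at least 20 counts over both libraries were. Over those 424 genes the median log2 ratio was -0.07, and 189 were higher in replicate 1. The neighbours Mirlet7d, Mir100, Mir99a and Mir98 were also higher in replicate 1, by 1.03, 0.61, 0.34 and 0.21, and Mirlet7b was not (-0.09). Markers of other cell types moved between the libraries as well. Of 25 listed markers, 20 had at least 20 counts over both libraries, and of these 11 were higher and 9 lower in replicate 1. The choroid plexus markers Mir34c and Mir204 were both higher in replicate 1 (1747 and 1148 CPM, against 292 and 744 CPM in replicate 2), and they summed to 2894 and 1036 CPM. The endothelial Mir126a was lower in replicate 1 (12521 and 22475 CPM), as were 4 of 6 such neuronal markers, among them Mir128-1 (4545 and 9069 CPM) and Mir137 (4757 and 6655 CPM), though the neuronal sum was 35946 and 34288 CPM. Of the 3 listed markers of striated muscle, Mir1a-1 and Mir133a-1 were at 0 in both libraries, and Mir206 was at 26.5 and 22.6 CPM. The symbols Mir1a-1 and Mir133a-1 carry a copy number. Reads shared with another copy may stand in the multimapping line, so a count of 0 does not show absence. The part of cell composition in the ratios of the let-7 genes was not tested. The replicates are of 1 group, so these ratios describe the spread between libraries and carry no test.

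**Figure D5:**
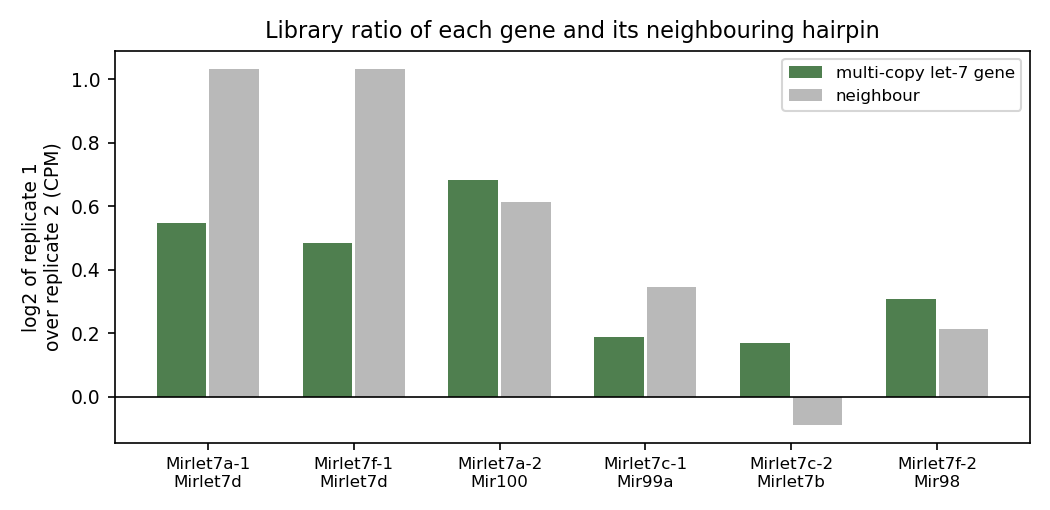
Log2 of replicate 1 over replicate 2 for each multi-copy let-7 gene (green) beside its single-copy or partner neighbour on the same strand (grey). All green bars are above 0, from 0.17 to 0.68, and the grey bar of Mirlet7b is below it.

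Of the 6 genes, Mirlet7f-1 alone overlaps an annotated miRNA gene of opposite orientation, Gm24111, at chr13:48537825-48537921. On its own strand Gm24111 had 0 counts in both libraries, and the opposite-strand column gave it 865 and 863, the same numbers as Mirlet7f-1. In the column that disregards strand Mirlet7f-1 had 0 counts in both libraries, while the other 5 genes had the same counts as on their own strand. The line for ambiguous reads held 221479 and 383239 reads in that column and 0 in the strand columns. The level of Mirlet7f-1 thus rests on the strand column. All 6 genes had 0 counts on the opposite strand.

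With 2 libraries, a gene's pattern is its level and 1 ratio, so likeness was taken as the place next to it in rank of mean CPM. Mirlet7f-2 stood between Mir21a (3431 ± 2468 CPM) and Mir338, and Mirlet7c-2 between Mir140 (1320 ± 532) and Mir181c (1265 ± 93.9). Mirlet7c-1 stood between Mir7689 (546 ± 108) and Mir326 (523 ± 140), and Mirlet7a-1 between Mir666 (282 ± 125) and Mir15b (277 ± 55.3). Mirlet7f-1 stood between Mir1983 (240 ± 41.3) and Mir155 (221 ± 19.0), and Mirlet7a-2 between Mir153 (171 ± 13.3) and Mir27a (162 ± 7.20). All of these neighbours in rank differed from the let-7 gene by less than its SD or their own. Since they were chosen by closeness of mean, the small differences follow from the choice and are no finding of likeness.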

How the data were processed

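Small RNA libraries of 2 biological replicates in 1 group were analysed. The authors deposited raw read counts per miRNA gene, 1 table per library with 4 summary lines and 3 count columns, mapped to mm10 with annotation M21, per the deposited notes. No source used here names the aligner, counter or trimming. From the values, 1 column disregards strand and the other 2 hold a strand each. The strand column with the larger total, 93.4% and 91.9% of their sum in replicates 1 and 2, was taken as sense. Summary lines were kept out of CPM totals: unmapped reads were 26.5% and 18.1%, and reads outside miRNA genes 5.72% and 5.91%.

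No test between conditions was possible. Copy ratios and library ratios used 0.5 CPM added, levels 1 CPM, and shares exact Clopper-Pearson 95% intervals. The script was tested on simulated data. Alternatives covered strand, denominator, pseudocount, count minimum, TMM (edgeR 4.0.16) and DESeq2 1.42.0 size factors in R 4.3.3, and each replicate left out. Python 3.11.15, scipy 1.17.1 and Biopython 1.88 were used.

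The members, lists and comparisons were chosen with earlier results of these data known. Named genes are the 6 members, single-copy let-7 genes, neighbours within 10000 bp, antisense miRNAs, miR-99, miR-100 and miR-125 genes, and neighbours in rank. Of 8 listed relatives, 6 are annotated. Counts are per gene, so reads of the 5p and 3p arms are summed. Exact matches were sought in M21 transcripts, not in the genome, and strain variants were not analysed here.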

Additional observations from a re-analysis of the deposited data

How the results depend on the processing

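Of 64 values recomputed with another setting, 39 stayed within a set margin of the main value and 25 moved beyond it. The margin was the SD between libraries, the counting error for library ratios, or a fixed fold for counts of genes. A change of sign was looked for in copy ratios and level gaps alone, and 0 of these changed sign. Counted without regard to strand, where Mirlet7f-1 has 0 counts, the log2 ratio of Mirlet7f-1 over Mirlet7f-2 was -12.84, a value set by the added 0.5 CPM. The gap of the 6 genes to their single-copy relatives, -6.96, was -6.83 in those counts, -6.94 with 5 CPM added, -6.26 by means and -4.70 with pair sums. Without regard to strand the relative Mirlet7e also had 0 counts in both libraries. The value of -6.83 thus includes a gene lost to that column on each side. With multimapping reads in the denominator, the share of the 6 genes was 0.271%. Past 2-fold between the libraries were 69 genes, 37 with a minimum of 100 counts and 184 with none. Detected were 384 genes, 451 with a minimum of 5 counts and 287 with 50. All CPM levels fell when the denominator was widened to multimapping or all reads, as they must with the same counts. These falls are among the 25 moved values and say nothing on how firm the results are. Leaving out a replicate returns the value of the other library, already given above, so it is no separate check. These copy ratios ranged from 0.70 to 0.84 for let-7a, -1.28 to -1.26 for let-7c and -3.94 to -3.76 for let-7f. No paired analysis was possible because there is 1 group. Depth gave at least 554 counts for each gene and library.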
